A study of Mus musculus with 14 samples.

Results

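The growth hormone and insulin-like growth factor (IGF) axis of the liver was followed in mice given mesenchymal stem cells (MSCs). Its members were set by gene symbol as the hormone's receptor, signal transducers, feedback inhibitors and secreted IGF proteins. Of 10 genes listed, 9 are reported, out of 19938 genes that had a probe set annotated to that gene and to no other, and the remaining 1 is not analysed here. Where a gene had more than 1 such probe set, the one with the highest mean over all arrays was taken. All 9 had a mean above the median of the 23410 probe sets tested.

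Livers came from male C57BL/6 mice that were 24 weeks old and had eaten a high-fat diet for 20 weeks. The HFM group (n = 7) received human bone marrow-derived MSCs from a single donor by tail vein, and the HFS group (n = 7) received the vehicle alone, called saline in the labels and PBS in part of the methods. Tissue was taken 24 h after the injection, so both groups share the diet, the injection and the time. Neither a chow-fed nor an uninjected group was analysed here. Each array held the RNA of 1 liver on an Affymetrix mouse gene array, and the values are log2 expression per probe set as normalized by the study.

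Growth hormone from the pituitary binds its receptor on hepatocytes, which switches on the kinase JAK2 and, through it, the transcription factors STAT5A and STAT5B. Phosphorylated STAT5 dimers enter the nucleus and induce, among others, Igf1, Igfals, Socs2 and Cish, and the last pair encode proteins that damp the same receptor. IGF1 made by the liver circulates in a complex with an IGF binding protein and the acid-labile subunit, while IGFBP1 and IGFBP2 are smaller carriers whose levels follow nutrition and insulin. In rodents the pulses of growth hormone in males also set which liver genes are male-biased or female-biased.

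STAT5 binds the palindrome TTCNNNGAA, which reads the same on both strands, so the sites that these letters mark are shown for the members that carry them in the windows searched. RefSeq promoter windows of 300 bases (250 before and 50 after an annotated start, build GRCm38.p6) were matched by symbol for 8 of the 9 genes, with 14 windows in all. No window was at hand for Socs2, so Socs2 was not searched. The motif was present in 3 of the 14 windows, which belong to Cish and Igfals, against 8.3% of all 32851 windows. More than 1 match in a window, as in Cish, occurred in 0.457% of all windows. Each stretch below is 30 bases on the plus strand, with the fixed letters of the motif in capitals.
Cish, chr9:107296654-107296683: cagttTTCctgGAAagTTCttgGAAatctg
Igfals, chr17:24877603-24877632: ataatTTCtcaGAAaagaggctgaggaata
Igfals, chr17:24878168-24878197: aggtgTTCctaGAAgaggccctgggggagg
In Cish the matches begin at bases 1 and 12 counted from the annotated start. In Igfals they begin 236 and 58 bases before 2 different annotated starts. A match of letters is not a measured binding site, and no binding was assayed in these livers.

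Within the axis, the largest differences between HFM and HFS livers were in Igfbp2, Cish and Socs2, all lower in HFM livers, while the receptor gene Ghr and the hormone gene Igf1 differed by less than 0.1 on the log2 scale. For Socs2 this place holds only for the probe set with the higher mean. Its other probe set differed by -0.13, less in size than Stat5a at 0.16. No member passed an adjusted p of 0.05 in limma, where the adjusted p ran from 0.714 for Igfbp2 to 0.971 for Ghr, and 0% of all probe sets did. Past an unadjusted p of 0.05 there were 3 of 9 members, where 6.47% of all probe sets passed. Igfbp2 and Cish were lower, as were 2.90% of all probe sets, and Stat5a was higher, as were 3.57%. The methods' filter was set at a p of 0.01 and a change of 1.2-fold, used here without its Bonferroni correction, and Igfbp2 was the single member that passed it, where 0.696% of all probe sets passed and 0.243% passed as lower. The values of HFM and HFS mice overlapped in all 9 members, while 0.0555% of all probe sets had groups that did not overlap (0.0299% with HFM lower). Of the 9 members, 5 were below 0 and 4 above, with a median log2 difference of -0.03, beside a median of 0.00 and 48.6% below 0 over all probe sets.

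**Figure D1:**
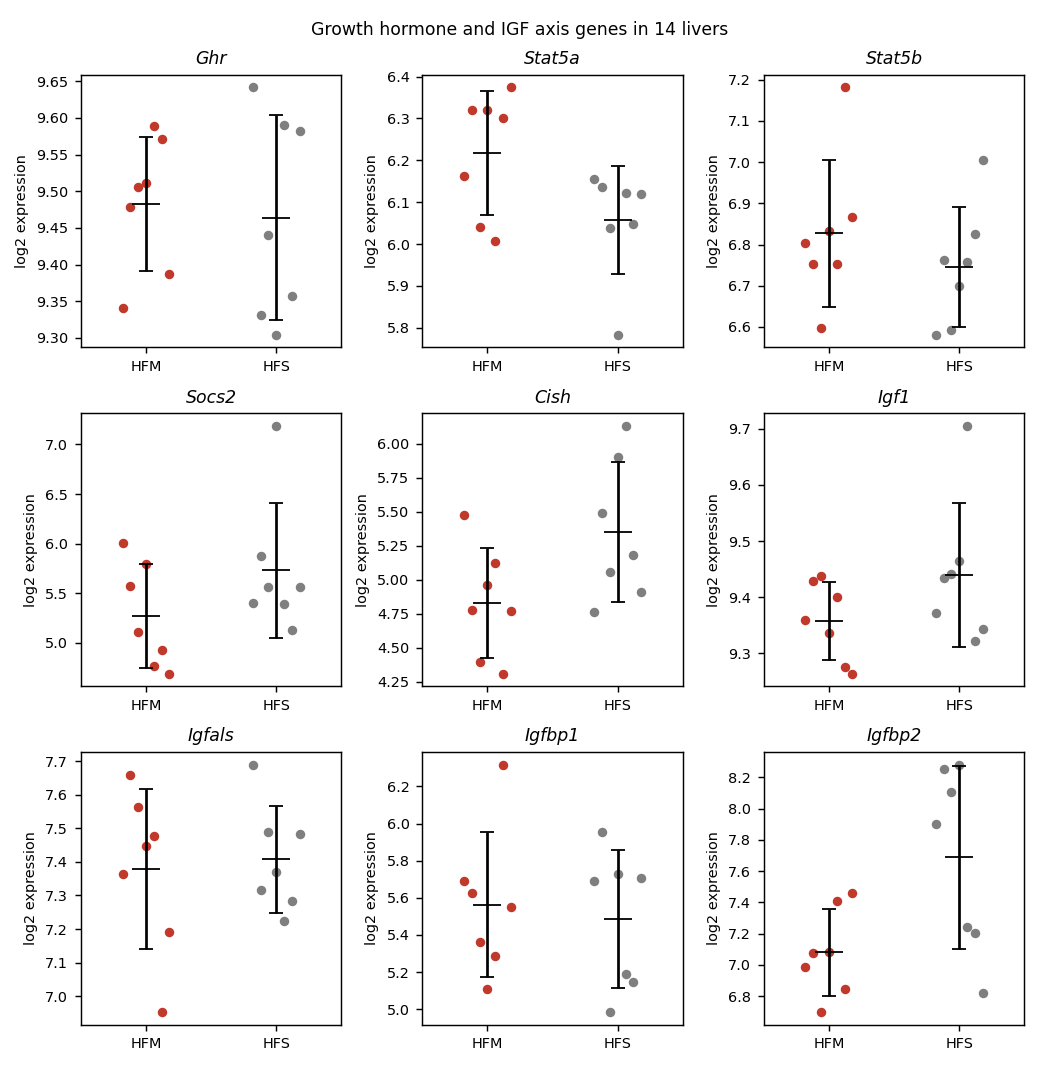
Log2 expression (y axis, as deposited, with its own scale in each panel) of the 9 axis genes in HFM (red) and HFS (gray) livers. Each point is 1 mouse, with a bar for the mean and whiskers for the SD of the 7 mice; the groups overlap in every panel, and for Igfbp2 the HFS mice run from 6.82 to 8.28 while the HFM mice run from 6.70 to 7.46.

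Igfbp2 encodes a secreted IGF binding protein made by hepatocytes (chr1:72824480-72852474, build GRCm38.p6). In HFM livers its log2 expression had a lowest value of 6.70, a median of 7.08 and a highest value of 7.46, and in HFS livers a lowest value of 6.82, a median of 7.90 and a highest value of 8.28. The HFS mice stood in a high and a low set, since HFS1, HFS2, HFS3 and HFS4 lay between 7.90 and 8.28, above every HFM mouse, while HFS5, HFS6 and HFS7 lay at 7.24, 7.21 and 6.82, within the range of the HFM mice. These sets were drawn after the values were seen, and they follow the order of the mouse numbers. Igfbp2 averaged 7.08 ± 0.28 in HFM and 7.69 ± 0.59 in HFS livers (SD, n = 7 each), with all 7 HFM mice under the HFS average. This is a log2 difference of -0.61 (standard error 0.20, 95% interval -1.04 to -0.18) and a ratio of 0.656, with an unadjusted p of 0.00800 and an adjusted p of 0.714 from limma. With all 3432 ways to assign the mice, an exact two-sided permutation test gave p = 0.0361, where the smallest p possible is 0.000583. With each mouse left out in turn the difference ran from -0.75 without HFS7 to -0.51 without HFS4, and it stayed at an unadjusted p under 0.05 in 14 of 14 cases, but at one under 0.01, as the methods' filter asks, in 5 of 14.

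Cish and Socs2 encode inhibitors of the SOCS family that STAT5 induces and that act back on the receptor. Cish (chr9:107296659-107302784), the gene with the paired motif matches shown above, had a lowest value of 4.31, a median of 4.78 and a highest value of 5.48 in HFM livers, against 4.77, 5.19 and 6.13 in HFS livers. Its highest HFS mice were HFS5 at 6.13, HFS4 at 5.90 and HFS2 at 5.49, the last just above the highest HFM mouse, HFM1 at 5.48. Its lowest HFM mice were HFM6 at 4.31 and HFM3 at 4.40, and the other mice of both groups overlapped. The log2 difference of Cish was -0.52 (standard error 0.21, 95% interval -0.95 to -0.09), a ratio of 0.698, and 6 of 7 HFM mice lay under the average of HFS mice (limma, unadjusted p = 0.0210, adjusted p = 0.768). The exact permutation test gave p = 0.0600. Without HFM6, HFS4 or HFS5 the unadjusted p from limma was 0.0527, 0.0523 and 0.0550, with differences of -0.43, -0.43 and -0.39.

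Socs2 (chr10:95383903-95417321) had a lowest value of 4.69, a median of 5.11 and a highest value of 6.01 in HFM livers, against 5.13, 5.56 and 7.19 in HFS livers. Here 4 of 7 HFM mice lay below every HFS mouse, HFM1 at 6.01 lay above all HFS mice but HFS4, and HFS4 alone stood at 7.19. The log2 difference was -0.46 (standard error 0.27, 95% interval -1.02 to 0.10), which did not pass an unadjusted p of 0.05 (limma, p = 0.0992; exact permutation test, p = 0.177). Without HFS4 it was -0.22, and without HFM1 it was -0.59 with an adjusted p of 0.749 and past the unadjusted threshold in limma. Socs2 was measured by a second probe set, in which the difference was -0.13 (standard error 0.10) and HFS4, at 4.86, lay within the range of the other HFS mice. The coordinates given are those of the gene in RefSeq. Where either probe set maps in the genome was not checked, and which of them better measures Socs2 was not tested.

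Ghr encodes the growth hormone receptor (chr15:3317755-3583352). Its lowest value, median and highest value were 9.34, 9.51 and 9.59 in HFM livers and 9.30, 9.44 and 9.64 in HFS livers, so the HFM mice lay inside the range of the HFS mice. The log2 difference was 0.02 (standard error 0.07), and its 95% interval of -0.13 to 0.16 bounds the change in either direction to under 1.2-fold. The sign of this difference was turned by quantile normalization, at -0.00.

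The transcription factors stand next to each other on chromosome 11 and are close in sequence, so how far their probe sets tell them apart was not tested. Stat5a (chr11:100859351-100885169) ran from 6.01 through a median of 6.30 to 6.38 in HFM livers and from 5.78 through a median of 6.12 to 6.15 in HFS livers. In 5 of 7 HFM mice Stat5a lay above every HFS mouse, and the others, HFM3 at 6.04 and HFM5 at 6.01, lay among the HFS mice. Its log2 difference was 0.16 (standard error 0.08, 95% interval 0.00 to 0.32), close to the unadjusted threshold (limma, unadjusted p = 0.0486, adjusted p = 0.772; exact permutation test, p = 0.0455). With each mouse left out in turn it passed an unadjusted p of 0.05 in 5 of 14 cases (without HFM3, HFM5, HFS1, HFS2 or HFS5), and in the other cases it lay between 0.11 without HFS4 and 0.17 without HFS7. It also missed that threshold after quantile normalization, at 0.13, and with the brighter probe sets alone, all probe sets of the table, a trended and robust prior or the unmoderated test. With the replicate number of the mice as a block it missed it too (limma, unadjusted p = 0.0721). Stat5b (chr11:100780731-100859004), the form that carries most of the growth hormone signal in male mouse liver, ran from 6.60 through a median of 6.80 to 7.18 in HFM livers and from 6.58 through a median of 6.76 to 7.01 in HFS livers. Its difference of 0.08 (standard error 0.08, limma, unadjusted p = 0.351) was smaller than the spread between mice of either group, and without HFM6, which had the highest value, it was 0.02.

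Igf1, the main growth factor that liver releases under growth hormone (chr10:87858265-87937047), ran from 9.26 through a median of 9.36 to 9.44 in HFM livers, against 9.32, 9.43 and 9.71 in HFS livers. HFS5 stood above all the other mice, and the remaining 6 HFS mice lay between 9.32 and 9.46. The log2 difference was -0.08 (standard error 0.06, 95% interval -0.22 to 0.05; limma, unadjusted p = 0.216; exact permutation test, p = 0.149), and without HFS5 it was -0.04. All 7 HFM mice lay below the HFS mean of 9.44, a mean that HFS5 raised.

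Igfals, which also had motif matches, encodes the acid-labile subunit that keeps IGF1 in the circulation (chr17:24877844-24882011). Its values ran from 6.95 through a median of 7.45 to 7.66 in HFM livers, against 7.22, 7.37 and 7.69 in HFS livers, with HFM6 and HFM7 below every HFS mouse. The log2 difference was -0.03 (standard error 0.10, 95% interval -0.24 to 0.18), and it was 0.04 without HFM6, 0.00 without HFM7 and 0.02 without HFS1. Igfbp1 encodes a carrier that fasting induces and insulin represses (chr11:7197787-7202546). It ran from 5.11 through a median of 5.55 to 6.32 in HFM livers, against 4.98, 5.69 and 5.95 in HFS livers, with HFM6 the highest of all mice. Its log2 difference was 0.08 (standard error 0.17, 95% interval -0.28 to 0.44), and without HFM6 it was -0.05, so no direction can be given for either gene.

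**Figure D2:**
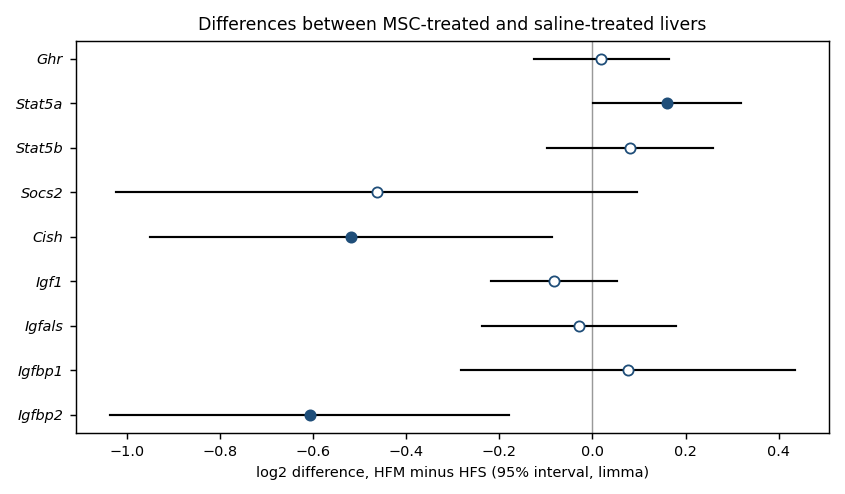
Log2 difference of each axis gene, HFM minus HFS (x axis), with the 95% interval from limma over 7 and 7 mice. Filled points are genes at an unadjusted p under 0.05 (Igfbp2, Cish and Stat5a), and none of the 9 passed an adjusted p of 0.05.

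**Figure D3:**
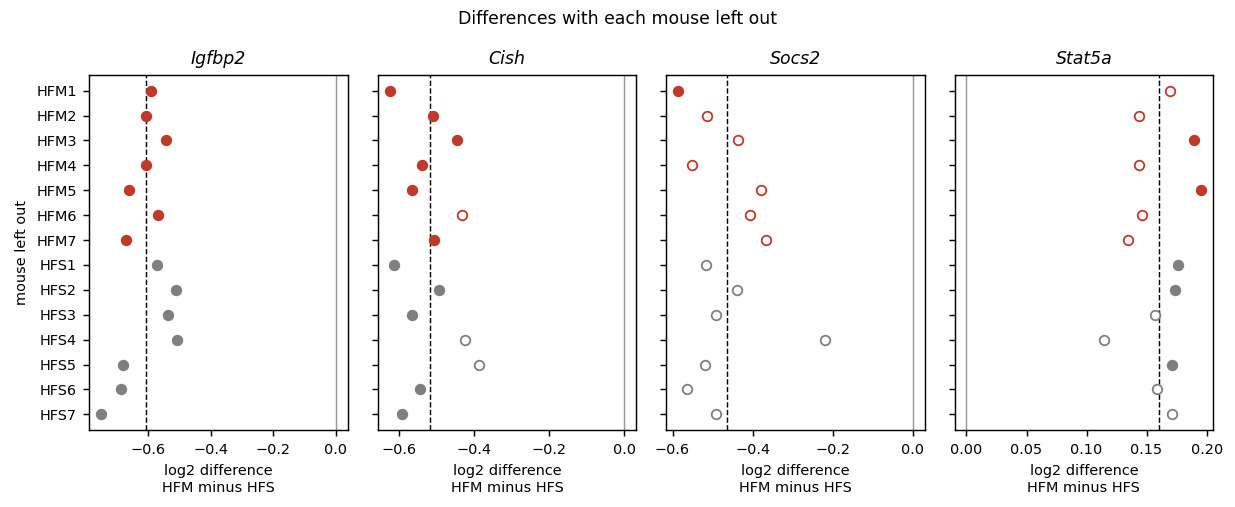
Log2 difference, HFM minus HFS (x axis, with its own scale in each panel), of 4 axis genes when the mouse named on the y axis is left out (red, HFM mice; gray, HFS mice; filled, unadjusted p under 0.05). The dashed line is the value with all 14 mice; Igfbp2 stayed between -0.75 and -0.51, and Socs2 reached -0.22 without HFS4.

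How the members moved with each other over the mice was examined in 9 chosen pairs, with Benjamini-Hochberg adjustment over these pairs. Stat5b and Igf1 had a Spearman's rho of -0.73 (permutation test, p = 0.00380, adjusted p = 0.0342) and a Pearson's r of -0.46 (permutation test, p = 0.106, adjusted p = 0.319) over 14 mice. In deviations from the group means their r was -0.40 (permutation test, adjusted p = 0.445), and without HFM6 and HFS7, the mice farthest from the median of Stat5b, it was -0.29. Within the groups r was -0.80 in HFM and -0.20 in HFS mice, where HFS5 joined a middling Stat5b to the highest Igf1. The relation passed in ranks but not in r, over all mice or in deviations from the group means.

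Socs2 and Cish had an r of 0.58 (permutation test, p = 0.0296, adjusted p = 0.267) and a rho of 0.50 (permutation test, p = 0.0690, adjusted p = 0.276). Their r was 0.52 within HFM and 0.46 within HFS mice, and 0.39 without HFS4 and HFM7. Ghr and Socs2 had an r of -0.49 (permutation test, p = 0.0640, adjusted p = 0.288) and a rho of -0.47 (permutation test, p = 0.0918, adjusted p = 0.276), and r was -0.15 without HFS4 and HFS2, -0.43 within HFM and -0.53 within HFS mice. Both pairs with Socs2 rest on its probe set with the higher mean. HFS4 lay at 7.19 in that probe set but at 4.86 in the second one, for which no correlation was computed. Igf1 and Igfals had an r of 0.13 (permutation test, p = 0.632, adjusted p = 0.901) and a rho of 0.35 (permutation test, p = 0.214, adjusted p = 0.458) over all mice, and their r was 0.54 without HFS5 and HFM7, 0.90 within HFM and -0.50 within HFS mice, and this difference between the groups was not tested. For Ghr and Igf1, r was 0.13 and rho was -0.04, and for Igfbp1 and Igfbp2 r was -0.01 and rho -0.03, with adjusted p values from permutation tests between 0.901 and 0.969. Without the mice farthest from the median these became 0.31 for Ghr and Igf1 (without HFS4 and HFS2) and 0.49 for Igfbp1 and Igfbp2 (without HFM6 and HFS3). Most pairs of members were not among the chosen ones. Of those, the largest r in deviations from the group means were -0.70 for Stat5b and Igfals, 0.60 for Cish and Igf1 and 0.53 for Stat5b and Igfbp1. These were named after their values were seen and were not tested.

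**Figure D4:**
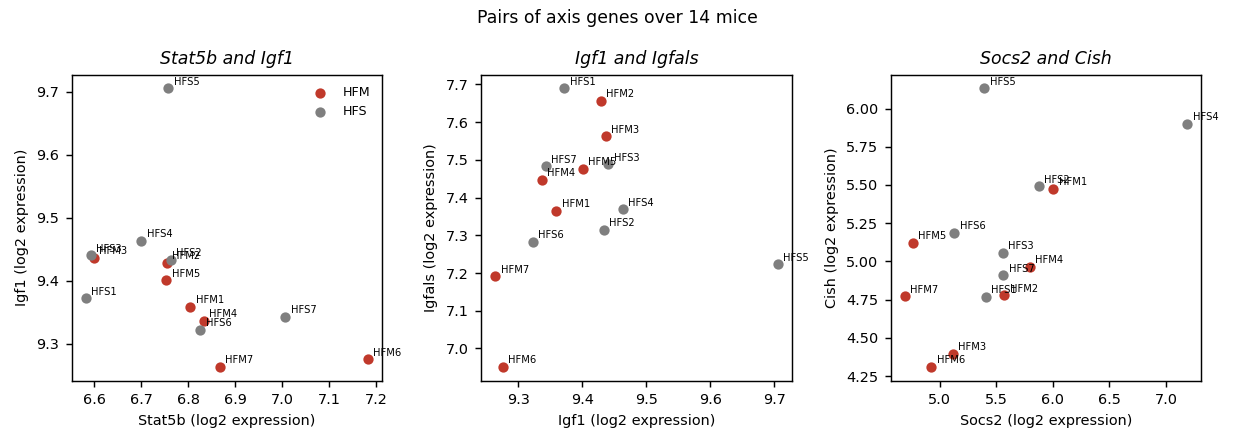
Log2 expression of 3 pairs of axis genes in each of the 14 mice (red, HFM; gray, HFS; the label is the mouse). Stat5b and Igf1 had a rho of -0.73 and an r of -0.46 (adjusted p of 0.0342 and 0.319 from permutation tests), with HFS5 at the highest Igf1, and Socs2 and Cish had an r of 0.58 (adjusted p of 0.267, permutation test), with HFS4 at the highest Socs2. Socs2 is shown by its probe set with the higher mean alone.

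Genes whose deviations from the group means followed Ghr most closely were named among 10925 probe sets with a single gene symbol and a mean above the median. These were Aox3, an aldehyde oxidase, at an r of 0.87, Ulk2, a kinase of autophagy, at 0.85, the zinc transporter gene Slc39a1 at 0.85, Tsc22d1 at 0.83 and Ndufb5, a subunit of respiratory complex I, at 0.83 over 14 mice. For Igf1 they were Ltn1, a ubiquitin ligase of stalled ribosomes, at 0.86, Cd55, an inhibitor of complement, at 0.85, Rrn3, an initiation factor of RNA polymerase I, at 0.82, Zfp946 at 0.82 and Creb1, a transcription factor of cAMP signaling, at 0.80. No gene was named for both. These are the highest values of a search over many genes in few mice and are given as a description.

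Around the members, 45 other genes of the same pathways were listed (kinases, phosphatases, adaptors, further IGF binding proteins and their proteases), of which 42 were measured. In limma, 2 were higher in HFM livers, 1 was lower and 39 were neither at an unadjusted p under 0.05, and none passed an adjusted p of 0.05. Over all probe sets, 3.57% were higher and 2.90% lower at that unadjusted p. The median log2 difference of the 42 genes was 0.03, with 25 above 0 and 17 below. The higher ones were Akt1, a kinase downstream of the insulin and IGF1 receptors, at 0.15 (standard error 0.07), and Foxo3, a transcription factor that AKT keeps out of the nucleus, at 0.25 (standard error 0.12). The lower one was Irs1, an adaptor of the insulin and IGF1 receptors, at -0.16 (standard error 0.08), and Sos1, which activates Ras, followed at -0.21 (standard error 0.11, unadjusted p = 0.0602). Named after their values were seen, the ends of the range were Bcl6, a repressor that competes with STAT5 at its sites in mouse liver, at 6.03 ± 0.83 in HFM and 5.49 ± 0.69 in HFS livers (0.54, standard error 0.33), and Onecut1, a transcription factor that growth hormone induces in rodent liver, at 6.00 ± 0.61 in HFM and 6.44 ± 0.52 in HFS livers (-0.44, standard error 0.25). Neither passed an unadjusted p of 0.05. Also named after their values were seen, Jak2 differed by -0.03 (standard error 0.13), Igf1r by -0.10 (standard error 0.09) and Socs3, the feedback inhibitor that interleukin-6 induces, by 0.02 (standard error 0.12).

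Among genes whose sex bias in mouse liver depends on growth hormone, 1 male-biased and 1 female-biased gene were lower in HFM livers at an unadjusted p under 0.05, where 2.90% of all probe sets were, and none passed an adjusted p of 0.05. Of 21 male-biased genes listed, 16 were measured, with 12 below 0 (against 48.6% of all probe sets), 4 above and a median of -0.15. By limma, 1 of these was higher past an unadjusted p of 0.05 (as were 3.57% of all probe sets), Selenbp2, at 0.17 (standard error 0.07), 1 was lower, Ugt2b38, a glucuronidation enzyme, at -0.40 (standard error 0.18), and 14 were neither. Hsd3b5, a male-biased steroid dehydrogenase named after its values were seen, averaged 3.59 ± 1.16 in HFM livers against 4.77 ± 1.55 in HFS livers (SD, n = 7 each), which differ by -1.18 (standard error 0.59, unadjusted p = 0.0627 from limma). Its HFM mean lay below the array medians, which ran from 4.24 to 4.35. Of 22 female-biased genes listed, 16 were measured, with 12 below 0, 4 above and a median of -0.06. Among them 1 was lower at an unadjusted p under 0.05, Cyp2b10, which the receptor CAR also induces, at -0.28 (standard error 0.12), 0 were higher and 15 were neither, and Sult3a1, a sulfotransferase, was at -0.15 (standard error 0.08). The Sult3a1 means, 2.12 in HFM and 2.27 in HFS livers, lay below the median of every array. Members of the Mup, Cyp3a and Cyp2c families are near-identical, and those without a probe set of their own were left out.

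**Figure D5:**
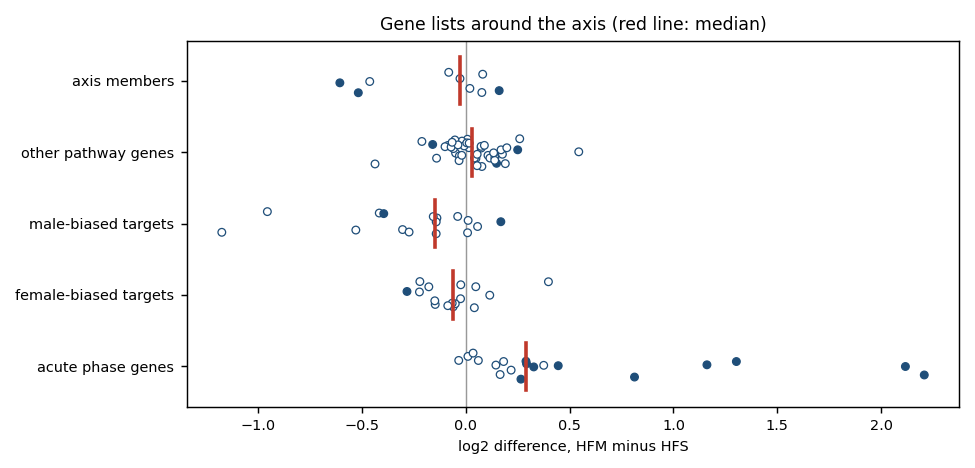
Log2 differences, HFM minus HFS (x axis), of single genes in the axis and in 4 lists beside it (filled, unadjusted p under 0.05; red line, median of the list; vertical scatter within a list has no meaning). Medians were -0.03 for the axis, 0.03 for other pathway genes, -0.15 for male-biased and -0.06 for female-biased targets, and 0.29 for acute phase genes.

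Insulin and nutrition also act on Igfbp1, Igfbp2 and Igf1. Of 12 measured genes of the response to fasting and insulin, 6 were above 0 and 6 below, and 1 was lower at an unadjusted p under 0.05, as were 2.90% of all probe sets. This was G6pc, the phosphatase that releases glucose, with a log2 difference of -0.79 (standard error 0.26; limma, unadjusted p = 0.00737, adjusted p = 0.714). Like Igfbp2, G6pc passed the methods' filter used without its Bonferroni correction, where 0.243% of all probe sets passed as lower. The next by p was Srebf1, a regulator of lipid synthesis, at 0.40 (standard error 0.23).

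In HFM livers, 10 of 19 acute phase genes and 4 of 11 macrophage markers were higher at an unadjusted p under 0.05 in limma, where 3.57% of all probe sets were, and none passed an adjusted p of 0.05 (the smallest were 0.482 and 0.763). Of the acute phase genes, 18 had a difference above 0, and Saa1 was higher by 2.21 (standard error 0.61), Saa2 by 2.12 (standard error 0.61), Saa3 by 0.81 (standard error 0.15) and Lcn2 by 1.30 (standard error 0.41). The mean level of this list per mouse ran from 10.03 to 10.49 in HFM and from 9.24 to 10.59 in HFS livers. Of the HFS mice, HFS5 and HFS6 had the highest Saa1, at 9.28 and 8.25, and both were in the low set for Igfbp2. HFS3 and HFS4 had the lowest Saa1, at 4.47 and 4.22, and lay in the high set for Igfbp2, at 8.10 and 8.28. HFS7, which had the lowest Igfbp2 of the group, had a Saa1 of 6.12. For Cish the order differed, as HFS5 had the highest value of all mice. Over 14 mice, Saa1 had an r of 0.25 and a rho of 0.23 with Ghr, -0.11 and -0.33 with Igf1, and 0.06 and -0.11 with Igfbp1, with adjusted p values from permutation tests between 0.458 and 0.951. No correlation of Saa1 with Igfbp2, Cish or Stat5a was computed, so these values do not tell how those genes moved with the acute phase.

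All 11 macrophage markers had a difference above 0, and the smallest p values were those of Cd5l at 0.56 (standard error 0.21) and C1qb at 0.41 (standard error 0.17), and their mean level per mouse ran from 6.56 to 7.61 in HFM and from 6.28 to 7.34 in HFS livers. Of 7 measured hepatocyte genes 0 passed an unadjusted p of 0.05, Alb had a difference of -0.09 (standard error 0.05) and Cps1 of 0.13 (standard error 0.13), and the mean level per mouse ran from 11.88 to 12.14 in HFM and from 11.86 to 12.12 in HFS livers. The part of inflammation or of other cells in the values of Igfbp2, Cish and Stat5a was not tested. In whole liver, fewer cells of a type and less RNA per cell cannot be told apart.

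Over the whole series, array medians ran from 4.24 to 4.35 and the correlation between arrays over all 35556 probe sets lay between 0.970 and 0.991 for every pair (median of 0.986 within and also between groups). Of 8 neutrophil markers 8 were above 0 and 1, Cxcr2, was higher at an unadjusted p under 0.05, where 3.57% of all probe sets were, but only 2 of the 8 had a level above the array median. Of 8 stellate cell markers 6 were above 0 and 2, Col1a2 and Pdgfrb, were higher at that threshold. The lists for T and NK cells and for B cells had 1 gene each past that threshold, Cd3g at 0.22 (standard error 0.07) and Cd79a at -0.24 (standard error 0.10), and those for endothelium, bile duct cells, fat, pancreas and muscle had 0. In either direction, 6.47% of all probe sets passed it. Of 8 T and NK cell genes, 5 were above 0 and 3 below. A level above the array median was reached by 1 of these 8 and by 2 of 4 B cell genes. All 4 muscle and both pancreas genes were below 0, and no gene of these marker lists passed an adjusted p of 0.05.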

How the data were processed

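Liver RNA of 7 HFM and 7 HFS mice was measured with 1 array per mouse. The authors made log2 expression values per probe set in Expression Console, and these deposited log2 values were used without further scaling. The labels name RMA and the paper names PLIER as the algorithm, while program versions and the build of the probe sets were not given in the sources used here. All 14 value columns were used. Of 35556 probe sets, 12146 have no gene symbol in the platform annotation and were left out, 21789 have 1 symbol and 1621 several. Entrez identifiers of 21698 of the probe sets with 1 symbol, and of all 9 members, were found in RefSeq (GRCm38.p6), which gave coordinates.

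HFM minus HFS was fitted with limma 3.58.1 (R 4.3.3, lmFit and eBayes, no covariate) over 23410 probe sets with Benjamini-Hochberg adjustment, and single members were compared with an exact two-sided permutation test (Python 3.11.15). Intervals are 95% and come from limma. Correlations used 100000 permutations. The fits were tested on simulated data.

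Members and lists were chosen with earlier results of these data known. Genes named besides the members had the smallest p of their list (4 for other pathway genes, 2 for each other list), were the 5 most like Ghr or Igf1, were acute phase measures (Saa1, Saa2, Saa3 and Lcn2), or are marked as named after their values were seen. Alternatives were normalization, filters, weights, priors, a block and each mouse left out. That mice are independent animals comes from the labels, and their number limits the precision. No scan date or other batch was known.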

Additional observations from a re-analysis of the deposited data

Results flagged for a closer look

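In 3 of 18 groups of 7 mice, the highest or lowest mouse stood far enough from the others to exceed Dixon's critical value of 0.568, a gap that chance gives in about 1 of 20 groups, and no HFM group was among them. HFS4 was the lowest HFS mouse for Stat5a at 5.78 (nearest mouse 6.04, gap 0.688 of the range) and the highest for Socs2 at 7.19 (nearest mouse 5.87, gap 0.639). HFS5 was the highest HFS mouse for Igf1 at 9.71 (nearest mouse 9.46, gap 0.631).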

How the results depend on the processing

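Igfbp2, Cish and Socs2 stayed lower and Stat5a and Stat5b higher in HFM livers under every alternative tried, and no member passed an adjusted p of 0.05 under any of them, a Bonferroni correction included. Igf1 also stayed lower, at -0.10 to -0.04 with each mouse left out, but never at an unadjusted p under 0.05 in limma. The count of members at an unadjusted p under 0.05, 3 with all mice, was 1 (Igfbp2) with the unmoderated test, 2 (Cish and Igfbp2) with quantile normalization, the brighter probe sets alone, all probe sets of the table or a trended and robust prior, and 1 to 3 with each mouse left out, the 1 being Igfbp2 without HFM6 and without HFS4. At the filter of the methods the count of 1 was 0 with all probe sets of the table, with a trended and robust prior and with the unmoderated test, and 0 to 1 with each mouse left out (0 without HFM2, HFM3, HFM4, HFM6, HFS2, HFS3 or HFS4). The gene that passed it was Cish in place of Igfbp2 without HFM1, without HFS1 and with the replicate block, so that Igfbp2 missed it in 9 of 14 cases with a mouse left out. The median of the members ran from -0.075 to 0.019 with each mouse left out, turning above 0 without HFM7 (0.0028) and without HFS1. Small differences changed sign, and the cause was not tested. Ghr was at -0.0028 with quantile normalization, and ran from -0.0074 to 0.049 with each mouse left out, below 0 without HFS4 and HFS2. Igfals ran from -0.075 to 0.043, above 0 without HFM6, HFM7 and HFS1, and Igfbp1 from -0.049 to 0.15, below 0 without HFM6 and HFS3. With the other Socs2 probe set, chosen after seeing the data, Socs2 was at -0.13. Mice of the same number did not deviate together (7 pairs, correlations of -0.20 to 0.14, and 0 HFM mice were closest to the HFS mouse of their number). With the number as a replicate block, the count at an unadjusted p under 0.05 was again 3, now Socs2, Cish and Igfbp2, the count at an adjusted p of 0.05 was 0 and the median was -0.03.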
